A study of Mus musculus with 11 samples.

Results

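Reporter-positive and reporter-negative cells of the mouse duodenal epithelium were set against each other in each of 2 reporter strains, and the size of that enrichment was then compared between the strains. The quantity followed throughout is the difference of enrichment: the log2 ratio of NeuroD1 positive to NeuroD1 negative cells minus the log2 ratio of Glu positive to Glu negative cells. All 11 libraries of the 11 in the series enter it, 6 from the strain Neurod1-cre-eYFP (3 positive, 3 negative) and 5 from the strain GluVenus (3 positive, 2 negative). In the former, Cre under the control of the Neurod1 gene switches on a yellow fluorescent protein, a label that stays on in the descendants of a cell. In the latter, the fluorescent protein Venus reports activity of the proglucagon gene Gcg. Mice of both strains ate standard chow, and the labels give no ages. Genes higher in both positive gates were separated from genes whose enrichment differed between the strains. The former are pan-endocrine in the sense of the gates alone, and they include hormones of single cell kinds, such as the ghrelin gene Ghrl.

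Enteroendocrine cells are the scattered hormone cells of the gut lining. The transcription factor Neurod1 is switched on as they form, so a Neurod1 label can cover most of their kinds, while a proglucagon reporter marks L cells and cells that share their program. Other kinds make other messengers: D cells somatostatin, enterochromaffin cells serotonin and often tachykinins, X cells ghrelin, I cells cholecystokinin and K cells the incretin GIP. All of them store peptides in dense-core granules with granins and prohormone convertases, the shared machinery against which strain-specific genes can be read. A difference of enrichment near 0 means that a gene marks the positive cells of both strains to a like degree, and a large one that it marks those of 1 strain more. In sorted bulk samples, fewer cells of a type and less RNA per cell cannot be told apart.

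Promoter sequences are shown for 3 genes whose enrichment differed between the strains (Reg4, Tac1 and Sst) and for Scg2, a granin enriched in both, because these genes recur in the results. Each runs 5′ to 3′ over the 250 bases before the RefSeq transcription start on GRCm38.p6, and capitals mark matches to 3 motifs searched on both strands: TAATTA, a core that homeodomain factors bind, CAGATG, an E-box of the kind that NEUROD1 binds, and TGACGTCA, the cAMP response element. The GENCODE gene start, used for the coordinates below, lies 182 bases before the RefSeq start for Tac1 and 114 for Sst. The marked motifs of these genes therefore lie inside the GENCODE gene. For Scg2 the starts are 94 bases apart, and for Reg4 they are the same.

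Reg4 promoter, chr3:98221906-98222155, plus strand: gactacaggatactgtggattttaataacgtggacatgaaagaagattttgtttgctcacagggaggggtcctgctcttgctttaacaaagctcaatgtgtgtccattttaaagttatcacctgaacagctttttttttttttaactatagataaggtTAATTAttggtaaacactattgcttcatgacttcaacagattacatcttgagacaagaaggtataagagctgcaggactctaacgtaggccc

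Tac1 promoter, chr6:7554811-7555060, plus strand: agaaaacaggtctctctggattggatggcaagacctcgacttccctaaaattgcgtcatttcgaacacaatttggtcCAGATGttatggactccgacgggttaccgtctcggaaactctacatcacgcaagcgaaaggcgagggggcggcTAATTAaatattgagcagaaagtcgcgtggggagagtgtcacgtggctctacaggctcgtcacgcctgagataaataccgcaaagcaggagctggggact

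Sst promoter, chr16:23890845-23891094, minus strand: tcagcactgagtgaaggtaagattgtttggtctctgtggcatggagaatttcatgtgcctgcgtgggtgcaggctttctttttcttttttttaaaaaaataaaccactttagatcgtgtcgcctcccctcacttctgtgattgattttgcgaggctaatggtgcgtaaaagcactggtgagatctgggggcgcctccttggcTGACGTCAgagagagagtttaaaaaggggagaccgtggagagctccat

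Scg2 promoter, chr1:79440027-79440276, minus strand: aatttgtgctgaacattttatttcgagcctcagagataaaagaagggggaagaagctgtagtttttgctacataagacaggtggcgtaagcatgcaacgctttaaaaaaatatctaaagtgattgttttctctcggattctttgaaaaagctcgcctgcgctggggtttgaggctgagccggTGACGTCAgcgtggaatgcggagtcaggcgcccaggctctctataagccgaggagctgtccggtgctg

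A promoter was at hand for 13 of the 15 genes with larger enrichment in the NeuroD1 strain, for 133 of the 180 genes enriched alike and for 10774 of the genes tested. TAATTA stood in 4 of the 13 (30.77%; Reg4, Tac1, Afp and Fmo2), in 0.75% of the alike genes and in 2.48% of all. CAGATG stood in 2 of the 13 (15.38%; Tac1 and Iapp), in 9.02% and in 10.24%. TGACGTCA stood in 1 of the 13 (7.69%; Sst), in 4.51% and in 2.76%. These are matches of letters in a short window, counted without a test, and say nothing of binding.

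Libraries held 2279595 to 5722381 estimated counts, and 14629 of 38283 genes had enough of them to be tested. Mitochondrial rRNA (mt-Rnr1, mt-Rnr2) took 27.5% to 33.9% of the counts in 5 libraries and 0 in the 5 GluVenus libraries and NeuroD1_negative_6360, and was left out before scaling. Values are CPM, the share of a library's reads scaled to a common depth by TMM, and the libraries of a group are given in rising order of the number in their label. The labels do not tie these numbers to single mice, and p-values then speak only of the spread among libraries, which may be technical. Differences are log2 values ± SE, and a gene is called where the p of edgeR's quasi-likelihood test, adjusted by Benjamini-Hochberg over all genes tested, is under 0.05. The targeted genes went with the labels. Neurod1 was at 477, 634 and 606 CPM in the NeuroD1 positive libraries and at 43.0, 51.0 and 59.6 CPM in the negative ones. GluVenus libraries held Neurod1 at 455, 291 and 838 CPM in positive and at 18.1 and 35.3 CPM in negative cells. Gcg spanned 2722 to 3826 CPM in the Glu negative libraries and 23227 to 69333 in the positive ones, and 694 to 919 and 11932 to 14827 in the corresponding NeuroD1 libraries. Every positive library lay above every negative library of its strain for both genes, and the enrichments in the strains differed by -0.83 ± 0.56 for Neurod1 (adjusted p = 0.624) and by 0.38 ± 0.53 for Gcg (adjusted p = 0.844).

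The enrichment differed between the strains for 19 of 14629 genes (0.13%), with 15 (0.103%) larger in the NeuroD1 strain and 4 (0.0273%) smaller. The 15 included the enterochromaffin and D cell genes Reg4, Tac1, Lmx1a, Sst and Iapp, together with the receptor gene Glp1r, the channel genes Trpc7 and Asic5 and 7 others. The 4 included the lymphocyte genes Cd28 and Sash3. An unadjusted p under 0.05 was reached by 1560 genes (10.7%), and the median difference over all genes was -0.16 with a median SE of 0.98, so single genes of moderate difference could not be resolved with 2 or 3 libraries a group. In the NeuroD1 strain alone 903 genes (6.17%) were higher and 1132 (7.74%) lower in positive cells, and in GluVenus 556 (3.8%) and 388 (2.65%). Of these, 384 genes (2.62%) were higher in both and 256 (1.75%) lower in both. For 180 of the 384 (1.23% of all) the 95% interval of the difference lay within -2 to 2 on the log2 scale, that is within 4-fold either way, and these are called enriched alike. For 203 (1.39%) the interval reached past that bound without a call, and Gpx3 alone of the 384 (0.00684% of all) differed by the test.

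Called higher in NeuroD1 positive cells, not called higher in Glu positive cells and called different were 14 genes (0.0957%), of which 3 were called lower in Glu positive cells. The mirror class, higher in Glu positive cells only with a called difference, held 0 genes. With DESeq2 that mirror class held 20 genes and with no filter on low counts 63, and 4 without Glu_positive_5160 or without Glu_positive_4665, 1 without Glu_positive_5254 and 1 without NeuroD1_positive_6362. A further 505 genes (3.45%) were called higher in the NeuroD1 strain alone and 172 (1.18%) in GluVenus alone with no called difference. Of the 505, 434 also had a Glu enrichment above 0, and of the 172, 151 had a NeuroD1 enrichment above 0. The width of the bound sets the alike class, which held 4 genes at a bound of 1 and 314 at a bound of 3. Of the 19, 5 kept their call without Glu_negative_4665, 9 without Glu_negative_5254, 7 without NeuroD1_positive_6360 and 10 without NeuroD1_negative_6360. Without NeuroD1_positive_6362 or NeuroD1_negative_6362 11 kept it, and 15 without NeuroD1_positive_6361 or NeuroD1_negative_6361. The count of all called genes came to 49 without Glu_positive_4665, to 33 without Glu_positive_5160 and to 30 without Glu_positive_5254. With limma voom 12 of the 19 lost their call and with a replicate block 6. Afp, Reg4, Tpbg, Sst and Arg1 passed under each of the 22 alternative settings.

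**Figure D1:**
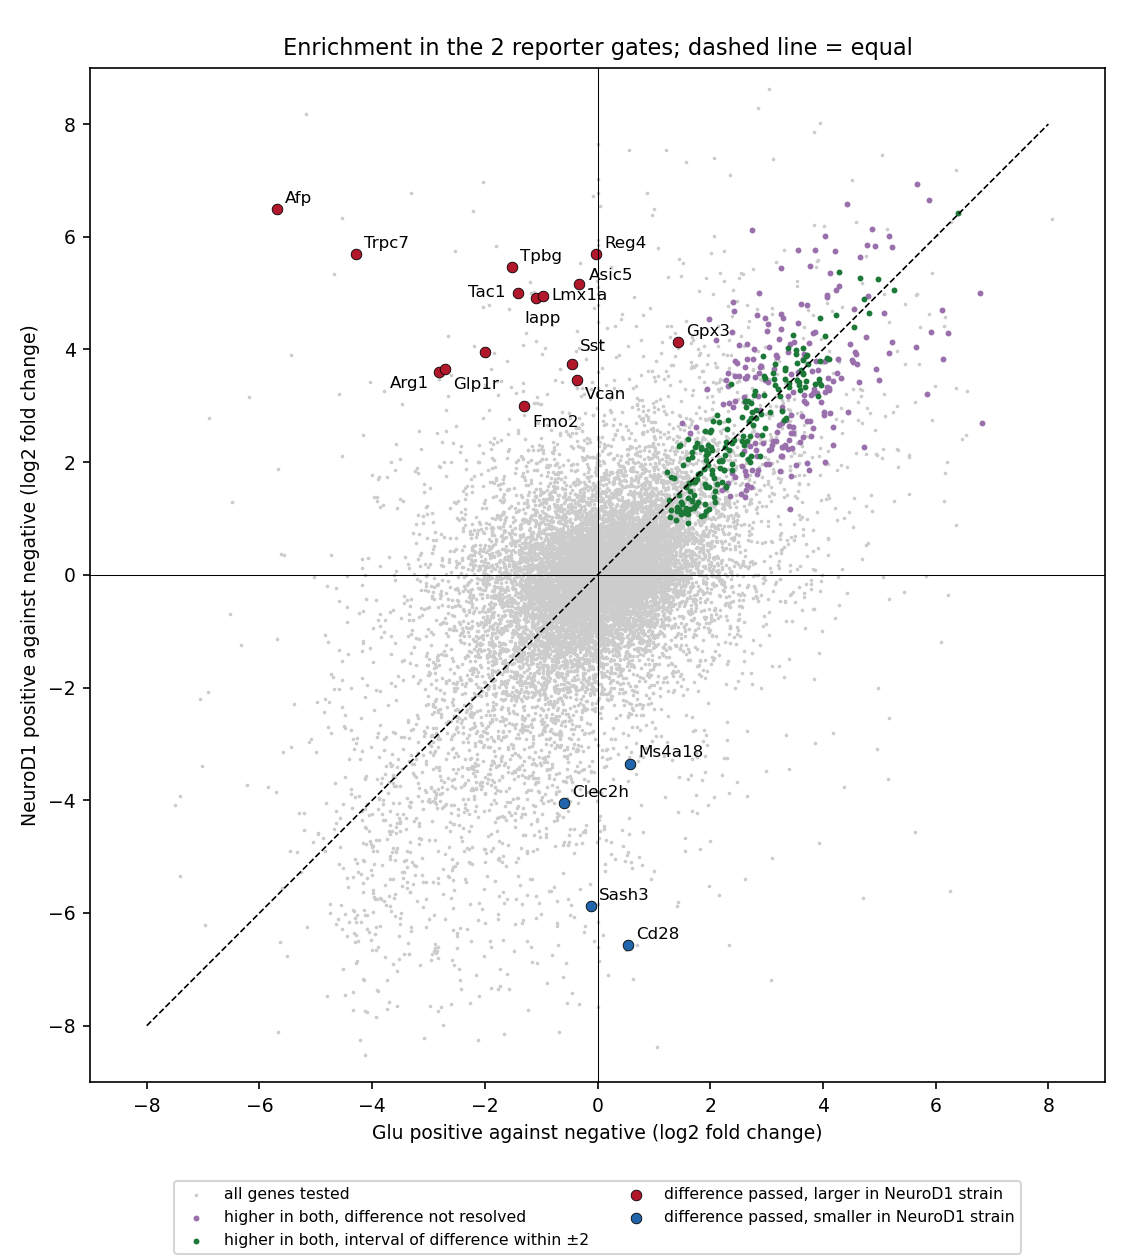
Log2 fold change of positive against negative cells in the NeuroD1 strain (y axis) and in GluVenus (x axis), 1 point per gene tested; 4 genes lie outside the axes at 9. Green (180) and purple (203) points are genes called higher in both strains, so their place in the upper right follows from that choice. The dashed line marks equal enrichment. Red points are the 15 genes with a larger enrichment in the NeuroD1 strain (the 1 without a name is 2810025M15Rik). Gpx3, also higher in both strains, is among the red points. Blue points are the 4 genes with a smaller enrichment.

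Among D cell genes, Sst and Iapp were enriched in the NeuroD1 strain and not in GluVenus. Somatostatin, the product of Sst (ENSMUSG00000004366, chromosome 16, 23889573 to 23890958), is the inhibitory peptide of D cells. Sst was at 26468, 19942 and 45452 CPM in the NeuroD1 positive libraries and at 1924, 2418 and 2493 CPM in the negative ones. GluVenus libraries held Sst at 101, 204 and 167 CPM in positive and at 311 and 119 CPM in negative cells. The NeuroD1 positive libraries all lay above the negative ones, while the Glu groups overlapped, and each NeuroD1 library, the negatives included, lay above each Glu library. The enrichment was 3.75 ± 0.42 in the NeuroD1 strain and -0.46 ± 0.42 in GluVenus, a difference of 4.20 ± 0.58 (95% interval 2.99 to 5.42, adjusted p = 0.00250 in edgeR). Iapp, which encodes the islet peptide amylin and lies on chromosome 6, 142298423 to 142303961, followed. Iapp was at 123, 164 and 293 CPM in the NeuroD1 positive libraries and at 6.81, 6.07 and 6.27 CPM in the negative ones. GluVenus libraries held Iapp at 0.165, 1.19 and 0.345 CPM in positive and at 1.01 and 1.07 CPM in negative cells. Its difference was 5.99 ± 0.94 (adjusted p = 0.00880), and the Glu libraries hold it at about 1 CPM or less, too little to rank positive against negative cells. Hhex, a homeodomain factor that D cells need, came next outside the threshold at 4.67 ± 0.94 (adjusted p = 0.0687), with 74.9 ± 37.3 CPM (SD, n = 3) in NeuroD1 positive and 1.70 ± 0.916 (SD, n = 3) in Glu positive libraries. It passed with DESeq2 (4.60, adjusted p = 0.00102) and no filter on low counts (4.69, adjusted p = 5.11e-04), without NeuroD1_positive_6361 (4.96, adjusted p = 0.0478) and without Glu_positive_5254 (4.92, adjusted p = 0.0378). The fatty acid receptor gene Ffar4, the last of the 4, was at -0.19. The median of the 4 was 4.43, against -0.16 over all genes. Without Glu_negative_5254 or Glu_negative_4665 Iapp lost its call, at 5.90 (adjusted p = 0.0868) and 5.97 (adjusted p = 0.131), and also with limma voom (adjusted p = 0.205).

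Enterochromaffin cell genes were split. Reg4 (ENSMUSG00000027876, chromosome 3, 98222156 to 98236748), a secreted lectin of the Reg family found in enterochromaffin and other secretory cells, was 1 of the 5 genes that passed under every alternative setting. Reg4 was at 3984, 4603 and 2726 CPM in the NeuroD1 positive libraries and at 68.9, 88.0 and 62.2 CPM in the negative ones. GluVenus libraries held Reg4 at 31.1, 103 and 87.6 CPM in positive and at 73.3 and 77.0 CPM in negative cells. Only the NeuroD1 positive libraries stood apart, and the other 8 libraries overlapped one another. The enrichment of Reg4 was 5.69 ± 0.45 in the NeuroD1 strain and -0.03 ± 0.41 in GluVenus, a difference of 5.72 ± 0.57 (95% interval 4.52 to 6.92, adjusted p = 4.78e-05 in edgeR). The other 4 Reg genes, Reg1, Reg3a, Reg3b and Reg3g, which encode lectins of absorptive and Paneth cells, had differences of -2.25 to -1.05, none of them called.

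Tac1 (ENSMUSG00000061762, chromosome 6, 7554879 to 7565834) encodes the precursor of substance P and neurokinin A, tachykinins that enterochromaffin cells release. Tac1 was at 496, 238 and 197 CPM in the NeuroD1 positive libraries and at 11.1, 10.3 and 7.32 CPM in the negative ones. GluVenus libraries held Tac1 at 2.47, 1.58 and 5.86 CPM in positive and at 15.9 and 1.07 CPM in negative cells. NeuroD1 positive libraries were all above the negative ones. The Glu groups overlapped, and the 2 Glu negative libraries lay on either side of the positives. The difference was 6.42 ± 0.97 (95% interval 4.38 to 8.46, adjusted p = 0.00614 in edgeR). Its call was lost with limma voom (5.59, adjusted p = 0.205) and a replicate block (5.58, adjusted p = 0.0617). Without Glu_negative_4665 it was 3.34 with adjusted p = 0.544, and it was 5.84 with adjusted p = 0.0565 without NeuroD1_positive_6360. Lmx1a, a LIM homeodomain factor that drives the serotonin program and lies on chromosome 1, 167689237 to 167848741, showed the same contrast. Lmx1a was at 178, 164 and 100.5 CPM in the NeuroD1 positive libraries and at 6.81, 4.25 and 2.61 CPM in the negative ones. GluVenus libraries held Lmx1a at 0.494, 0.396 and 0.690 CPM in positive and at 0.839 and 1.34 CPM in negative cells. Its difference was 5.91 ± 0.90 (adjusted p = 0.00614). It lost the call without Glu_negative_5254 (5.53, adjusted p = 0.0923) and without Glu_negative_4665 (6.16, adjusted p = 0.0702), and with limma voom (5.64, adjusted p = 0.205).

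The serotonin machinery itself was enriched in both strains. Tph1, the enzyme that starts serotonin synthesis, had enrichments of 3.70 in the NeuroD1 strain and 2.88 in GluVenus and a difference of 0.82 ± 0.69 (adjusted p = 0.705). For Ddc, the decarboxylase that completes that synthesis, the difference was -0.04 ± 0.59, and for Fev, a transcription factor of serotonin cells, -0.28 ± 0.70, both among the genes enriched alike. The Glu enrichment of Ddc lost its call without either Glu negative library. Trpa1, an irritant-gated channel, was enriched by 6.11 and 2.74, a difference of 3.37 ± 0.82 (unadjusted p = 6.31e-04, adjusted p = 0.133). Slc18a1, the vesicular monoamine carrier of these cells, was at 4.54 and 1.98, a difference of 2.57 ± 0.72 (adjusted p = 0.202). The GluVenus calls behind this were fragile: that of Tph1 was lost without Glu_negative_5254 (2.50, adjusted p = 0.0966), that of Trpa1 without Glu_negative_4665 (1.97, adjusted p = 0.224) and that of Slc18a1 without any of 9 libraries, each but Glu_negative_5254 and Glu_positive_5254 (1.25 to 2.04, adjusted p = 0.0508 to 0.347). With limma voom the GluVenus calls of Tph1 (2.82, adjusted p = 0.0552) and Trpa1 (2.94, adjusted p = 0.0839) were lost too. That of Slc18a1 was also lost with library totals alone (adjusted p = 0.0660), upper quartile scaling (adjusted p = 0.0552) and a replicate block (adjusted p = 0.105). Over the 12 enterochromaffin genes tested of 13, 2 passed (Lmx1a and Reg4; Tac1 is counted with the hormones), 6 had a higher value at an unadjusted p under 0.05 (4.35% of all genes did), 6 were higher in both strains and the median difference was 2.2. That median is 1.88 with the receptor gene Olfr558, which has 0 counts in 1 group, at its bound. Higher in both strains were 2.62% of all genes. Trpa1 passed with DESeq2 and with no filter on low counts, Slc18a1 with no filter. Asic5, a channel gene named for the acid-sensing ion channel family, is in no list and is not counted as an enterochromaffin gene. From negative to positive cells Asic5 went from 4.14 ± 1.57 to 143 ± 76.6 CPM (SD, n = 3 each) in the NeuroD1 strain. It stood at 0.494 to 5.15 and 1.07 to 4.36 CPM in Glu positive and negative libraries. Its difference of 5.49 ± 1.06 (adjusted p = 0.0483) lost the call without any 1 of the 6 NeuroD1 libraries (4.82 to 5.72, adjusted p = 0.0775 to 0.187) and without Glu_negative_4665 (4.05, adjusted p = 0.554). It was also lost with limma trend (5.10, adjusted p = 0.0894), limma voom (5.89, adjusted p = 0.207), mt-Rnr1 and mt-Rnr2 kept (5.47, adjusted p = 0.0518), RLE scaling (5.38, adjusted p = 0.0668) and a stricter filter (5.48, adjusted p = 0.0515).

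**Figure D2:**
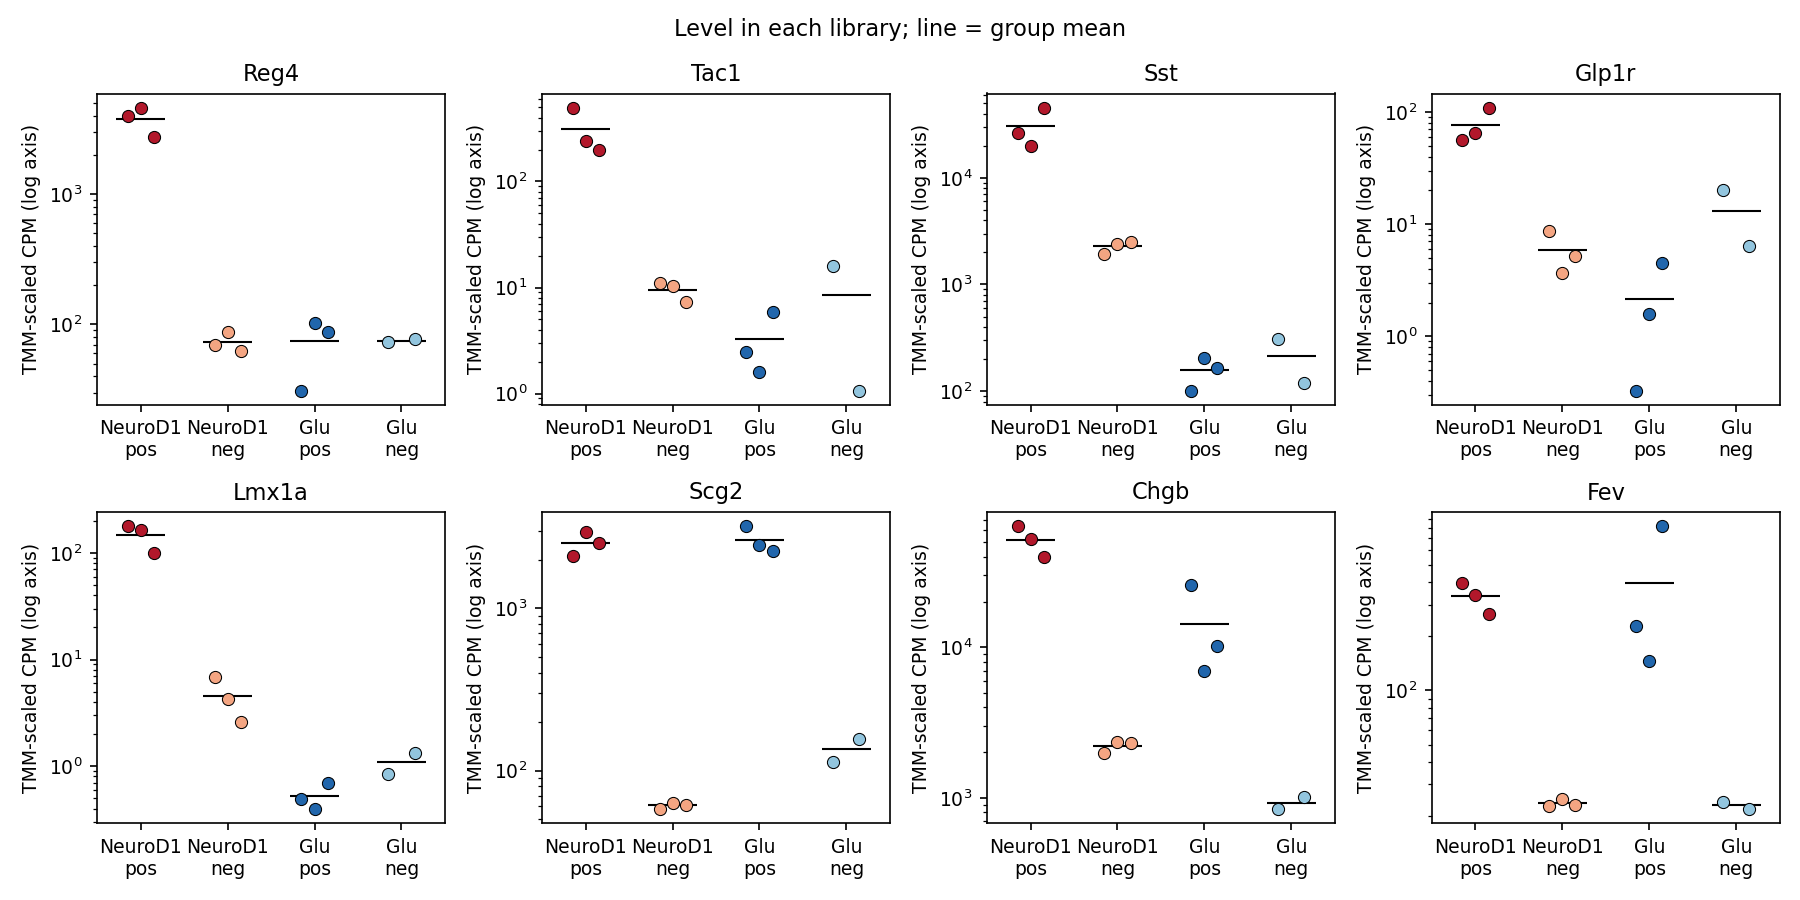
TMM-scaled CPM (log axis) of 8 genes in each of the 11 libraries, 1 point per library, with a line at the mean of each group of 3, 3, 3 and 2 libraries. Reg4, Tac1, Sst, Glp1r and Lmx1a are highest in the NeuroD1 positive libraries, while Scg2, Chgb and Fev are high in the positive libraries of both strains.

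Glp1r (ENSMUSG00000024027, chromosome 17, 30901817 to 30940791), the receptor for the proglucagon product GLP-1, was higher in NeuroD1 positive cells and lay lower in Glu positive cells, the latter by a call that single libraries end. Glp1r was at 56.1, 65.3 and 109 CPM in the NeuroD1 positive libraries and at 8.72, 3.64 and 5.23 CPM in the negative ones. GluVenus libraries held Glp1r at 0.329, 1.58 and 4.48 CPM in positive and at 19.97 and 6.41 CPM in negative cells. No positive library overlapped the negatives of its strain, above them for NeuroD1 and below them for Glu. It was enriched by 3.66 ± 0.73 in the NeuroD1 strain (adjusted p = 0.00207) and was at -2.71 ± 0.79 in GluVenus (adjusted p = 0.0460), a difference of 6.37 ± 1.06 (95% interval 4.14 to 8.61, adjusted p = 0.0123 in edgeR). The call was lost without NeuroD1_positive_6360 (6.49, adjusted p = 0.0545), NeuroD1_positive_6362 (5.93, adjusted p = 0.0753), NeuroD1_negative_6362 (6.29, adjusted p = 0.0589) or Glu_negative_4665 (5.24, adjusted p = 0.151), and with a replicate block (6.48, adjusted p = 0.0697). The GluVenus call on its own was lost without any of 10 libraries, each but Glu_positive_5254 (-3.26 to -1.61, adjusted p = 0.0602 to 0.467), Glu_negative_4665 giving the smallest size. It was lost as well with a replicate block (adjusted p = 0.161), with RLE scaling, with limma trend and with mt-Rnr1 and mt-Rnr2 kept. Of 17 peptide and transmitter receptors 10 were tested, and Glp1r alone passed. Their median was 1.41, and 5 were higher in both strains (2.62% of all genes were). Among the 5 was the somatostatin receptor Sstr5 (5.01 and 2.86, difference 2.15 ± 0.97, adjusted p = 0.434). Of the nutrient-sensing receptors 9 of 11 were tested and none passed (0 of 9), with a median of -0.79. At an unadjusted p under 0.05, 1 of 9 was higher, against 4.35% of all genes. Casr, the calcium-sensing receptor, differed by -0.79 ± 1.07 and Gpr119, a receptor for fat-derived signals, by -0.90 ± 0.76, both higher in both strains, while Ffar2, a receptor for short-chain fatty acids, was at 2.66 ± 0.90 (adjusted p = 0.291). In GluVenus the call of Sstr5 was lost without Glu_negative_4665 (2.72, adjusted p = 0.235) and without Glu_negative_5254 (3.05, adjusted p = 0.168), that of Casr without Glu_negative_4665 (4.87, adjusted p = 0.107) and without Glu_negative_5254 (3.70, adjusted p = 0.163), and that of Gpr119 without Glu_negative_4665 (3.20, adjusted p = 0.0715). Limma voom ended the GluVenus calls of Sstr5 (2.76, adjusted p = 0.0667) and Casr (3.57, adjusted p = 0.0791), and limma trend that of Sstr5 (2.36, adjusted p = 0.0618).

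The other genes with a larger enrichment in the NeuroD1 strain encode secreted and surface proteins, enzymes and a channel, beside a pseudogene. Afp, the fetal plasma protein alpha-fetoprotein, was at 1949, 2126 and 923 CPM in NeuroD1 positive and 18.1, 20.04 and 17.2 CPM in negative libraries. The Glu positive libraries held 2 counts of it in all, against 91 in the 2 Glu negative libraries, a ratio 53.9-fold lower with a 95% counting interval of 14.5 to 452. The fitted difference of 12.19 ± 1.11 (adjusted p = 2.01e-05 in edgeR) rests on those 2 counts and is no bound. The counts of the Glu negatives came mostly from Glu_negative_5254, at 20.6 CPM against 2.35 in Glu_negative_4665. Tpbg, a leucine-rich cell surface glycoprotein, was at 215, 164 and 138 CPM and 3.83, 3.04 and 4.70 CPM in NeuroD1 positive and negative libraries and at most at 2.35 CPM in any Glu library, a difference of 6.99 ± 0.85 (adjusted p = 6.38e-04). The arginine-degrading enzyme gene Arg1 rose in the NeuroD1 strain (3.61 ± 0.61, adjusted p = 5.19e-04) and fell in GluVenus (-2.81 ± 0.65, adjusted p = 0.0146). Its values were 41.8, 44.3 and 38.3 against 2.98, 3.04 and 4.18 CPM, and 1.15, 2.38 and 1.03 against 11.9 and 9.08 CPM, and the difference was 6.41 ± 0.89 (adjusted p = 0.00250). Afp, Arg1 and Glp1r are the 3 genes of the 15 that were also called lower in Glu positive than in Glu negative cells. That call of Afp was lost without Glu_negative_5254 (-3.44, adjusted p = 0.0709) and with limma voom (-4.80, adjusted p = 0.0770). That of Arg1 was lost without Glu_negative_4665 (-2.55, adjusted p = 0.132) and without Glu_negative_5254 (-2.96, adjusted p = 0.0580).

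Vcan, the matrix proteoglycan versican, was at 234, 146 and 124 CPM in NeuroD1 positive and 12.8 to 18.3 CPM in negative libraries, and at 11.2 to 26.5 and 21.1 to 25.1 CPM in Glu positive and negative ones, a difference of 3.82 ± 0.63 (adjusted p = 0.0123 in edgeR). For Fmo2, a flavin monooxygenase, the NeuroD1 values were 89.0, 89.0 and 114 and 8.93, 16.4 and 11.5 CPM and the difference 4.30 ± 0.72 (adjusted p = 0.0123). Trpc7, a cation channel of the Trp family, was at 41.4, 19.7 and 21.7 CPM in NeuroD1 positive and 0.425 to 0.607 CPM in negative libraries. It had 0 counts in all 3 Glu positive libraries and 7 in the Glu negatives, a ratio whose 95% counting interval begins at 1.71-fold lower (2.77-fold lower with a floor of 3 counts over the group). The fitted difference of 9.98 ± 1.67 (adjusted p = 0.0168) is therefore no bound. The processed pseudogene 2810025M15Rik, whose reads a near-identical copy may share, had a difference of 5.94 ± 1.07 (adjusted p = 0.0259). Gpx3, a secreted glutathione peroxidase, was the 1 gene enriched in both strains that differed: 1165, 1613 and 1052 against 59.8, 76.5 and 82.6 CPM for NeuroD1, and 166, 68.1 and 84.2 against 30.7 and 48.9 CPM for Glu. Positives lay above negatives in both strains, by 4.13 ± 0.40 and 1.42 ± 0.41, a difference of 2.71 ± 0.53 (adjusted p = 0.0493). The GluVenus enrichment of Gpx3 was itself lost without any of 8 libraries (0.94 to 1.81, adjusted p = 0.0549 to 0.348), all but NeuroD1_positive_6361, Glu_positive_5160 and Glu_positive_5254. That enrichment was also lost with library totals alone (adjusted p = 0.0919), upper quartile scaling (adjusted p = 0.0642), limma trend (adjusted p = 0.0549) and limma voom (adjusted p = 0.0645). Calls of these 5 genes leaned on single libraries. Gpx3 lost its call without any of 9 libraries (2.29 to 2.95, adjusted p = 0.0686 to 0.274) and 2810025M15Rik without any of the 8 NeuroD1 and Glu negative ones (5.68 to 6.10, adjusted p = 0.0586 to 0.145). Losses for Fmo2 came without 6 libraries (4.03 to 4.33, adjusted p = 0.0589 to 0.0959), for Vcan without 4 (3.44 to 3.85, adjusted p = 0.0797 to 0.126) and for Trpc7 without 4 (8.61 to 10.07, adjusted p = 0.0589 to 0.414). NeuroD1_positive_6360, NeuroD1_negative_6360 and Glu_negative_4665 were among them for each of the 5 genes. Gpx3 was lost also with library totals alone (2.75, adjusted p = 0.0632), limma voom (2.66, adjusted p = 0.198), mt-Rnr1 and mt-Rnr2 kept (2.68, adjusted p = 0.0553), a replicate block (2.50, adjusted p = 0.0713) and RLE scaling (2.66, adjusted p = 0.0637), Trpc7 with limma voom (7.51, adjusted p = 0.175) and a replicate block (10.15, adjusted p = 0.0617), 2810025M15Rik with limma voom (6.18, adjusted p = 0.138) and a replicate block (5.56, adjusted p = 0.0617) and Vcan with limma voom (3.88, adjusted p = 0.0834).

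Of the plasma proteins made mainly by liver, 6 of 12 were tested. Afp alone passed, the median difference was 1.47, and 3 were higher in both strains (2.62% of all genes were). Ambp, the precursor of alpha-1-microglobulin, and Ttr, which carries thyroid hormone, were enriched alike, with differences of -0.18 ± 0.62 and -0.55 ± 0.53. Rbp4, the carrier of retinol, was enriched by 4.82 and 3.61, a difference of 1.20 ± 0.53 (adjusted p = 0.429). Albumin (Alb) was called higher only in the NeuroD1 strain (44.0, 20.1 and 30.2 against 0.851, 0.607 and 1.57 CPM), at 0.165 to 1.58 and 0.503 to 0.534 CPM in the Glu groups, yet its difference of 4.28 ± 1.36 did not pass (adjusted p = 0.266).

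The difference of enrichment is also the gap between the positive populations minus the gap between the negative populations, so each gene can be split into those 2 arms. The arms use the libraries of the difference itself and are given as a description of where it sits. The strains share no library number, so a gap between them cannot be told apart from a difference in how their libraries were made. Between the positive populations 505 genes (3.45%) were higher in NeuroD1 and 684 (4.68%) lower, and between the negative populations 52 (0.355%) were higher and 17 (0.116%) lower. All 15 genes with a larger enrichment in the NeuroD1 strain were also higher in NeuroD1 than in Glu positive cells, and 1 of the 15, Sst, was higher in NeuroD1 than in Glu negative cells too. For Reg4 the arms were 5.68 ± 0.45 between positives and -0.04 ± 0.41 between negatives, and for Tac1 6.56 ± 0.76 and 0.14 ± 0.70. For Glp1r they were 5.24 ± 0.80 and -1.13 ± 0.74. Sst differed by 7.61 ± 0.51 between positives (adjusted p = 3.02e-08 in edgeR) and by 3.40 ± 0.50 between negatives (adjusted p = 0.00107): the negative cells of the NeuroD1 strain held more Sst than the positive cells of GluVenus.

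A strain gap in both gates can leave no difference of enrichment. Ghrl was at 7799.8, 10038 and 11278 CPM in the NeuroD1 positive libraries and at 783, 1009 and 1017 CPM in the negative ones. GluVenus libraries held Ghrl at 488, 215 and 552 CPM in positive and at 39.6 and 13.6 CPM in negative cells. Ghrl, the ghrelin gene of X cells, was 4.53 ± 0.44 higher between positives and 5.12 ± 0.54 higher between negatives (adjusted p = 2.58e-06 and 1.74e-05 in edgeR), and its difference of enrichment was -0.59 ± 0.58 (95% interval -1.80 to 0.62). It counts as enriched alike although every NeuroD1 library held more of it than the Glu library of the same gate. Ambp behaved in the same way (3.68 ± 0.45 and 3.86 ± 0.61, the latter lost without Glu_negative_5254, adjusted p = 0.0992, or without Glu_negative_4665, adjusted p = 0.0816). With limma voom the gap of Ambp between negatives lost its call as well (3.80, adjusted p = 0.135). Gcg, the reporter gene of the GluVenus strain, was lower in the NeuroD1 strain in both gates, at -1.61 ± 0.36 between positives and -2.0 ± 0.39 between negatives, and its enrichments of 4.02 ± 0.40 and 3.64 ± 0.47 differed by 0.38 ± 0.53. Chga, chromogranin A, was higher in both gates (4.11 ± 0.33 and 2.55 ± 0.36) with a difference of 1.56 ± 0.44 that did not pass (adjusted p = 0.192). Tph1 was higher in the NeuroD1 strain between negatives as well (3.24 ± 0.58, adjusted p = 0.00960), and the difference of its enrichments, above, was not called. Without single libraries some of these gaps lost their call: Gcg between positives without Glu_positive_5254 (-1.03, adjusted p = 0.05003) and between negatives without Glu_negative_5254 or any 1 NeuroD1 negative library (-2.08 to -1.74, adjusted p = 0.0859 to 0.214), and Tph1 between negatives without Glu_negative_4665 (3.86, adjusted p = 0.0736) and without Glu_negative_5254 (2.84, adjusted p = 0.282). Tph1 between negatives was lost with limma voom too (3.25, adjusted p = 0.106).

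**Figure D3:**
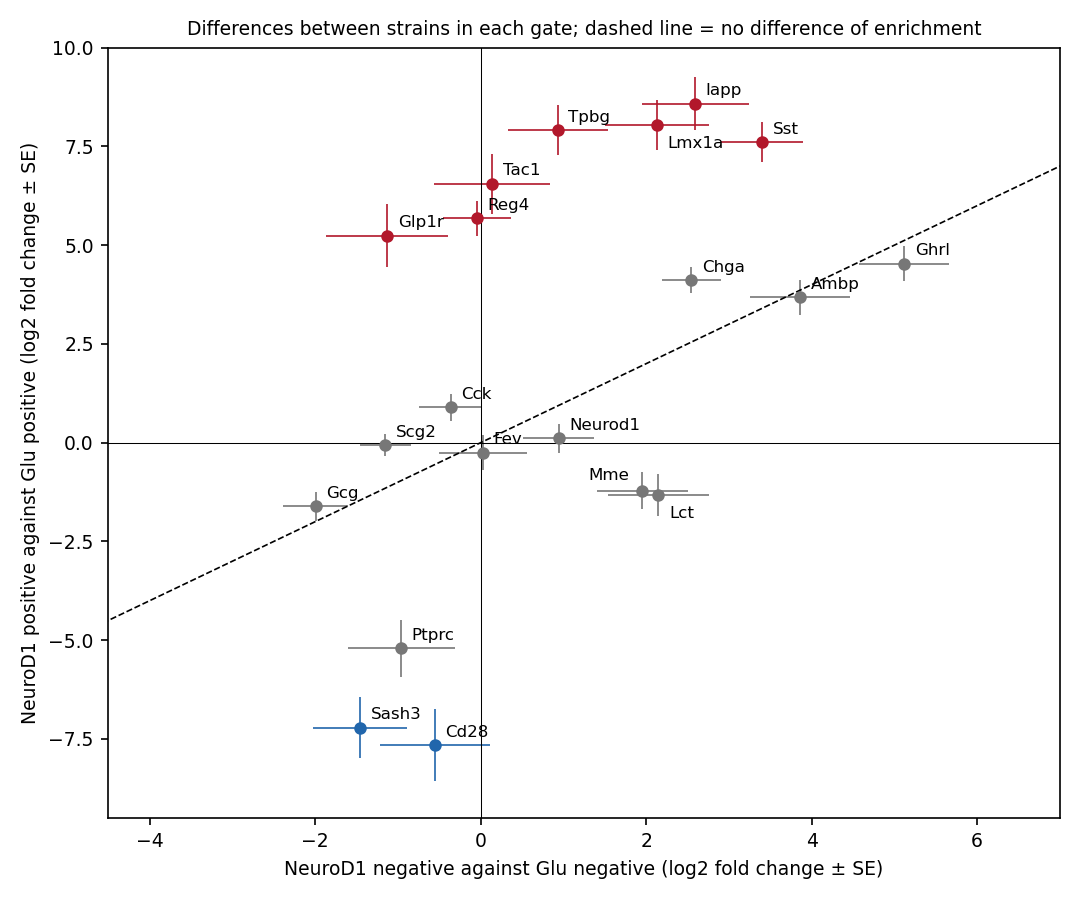
Log2 fold change between the strains in positive cells (y axis) and in negative cells (x axis), with SE bars, for 20 genes; the dashed line marks equal gaps, that is no difference of enrichment. Red genes lie far above the line, blue genes far below it, and Ghrl, Ambp and Gcg lie on it although the strains differ in both gates.

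The genes enriched alike in both positive gates included granins, convertases, vesicle fusion proteins, ion channels and transcription factors. Scg2, a granin of dense-core granules, was at 2107, 2957 and 2534 CPM in NeuroD1 positive and 57.9, 63.1 and 61.7 CPM in negative libraries, and 3216, 2449 and 2253 CPM in Glu positive and 113 and 157 CPM in negative ones. The positive libraries of the strains overlapped, and both enrichments were large, 5.38 ± 0.34 and 4.29 ± 0.38, with a difference of 1.09 ± 0.42 (95% interval 0.21 to 1.97). Chgb, chromogranin B, was at 63743, 52405 and 39584 CPM and 1980.1, 2348 and 2322 CPM in the NeuroD1 strain and at 25763, 6921 and 10269.8 CPM and 842 and 1008 CPM in GluVenus. It was enriched by 4.55 ± 0.44 and 3.95 ± 0.51, a difference of 0.60 ± 0.57. In all, 13 of 14 granin and prohormone-processing genes were higher in both strains, 8 of them alike, against 2.62% and 1.23% of all genes. The convertase Pcsk1 differed by 0.79 ± 0.50, carboxypeptidase E (Cpe) by 0.0 ± 0.41 and secretogranin Scg3 by -0.08 ± 0.49. The median was 0.19 and 0 of 14 passed (2 had a higher value at an unadjusted p under 0.05, 0 a lower one). Of all genes, 4.35% had a higher and 6.31% a lower value at that p. Of 15 regulated exocytosis genes 9 were higher in both, 7 alike, with a median of 0.48 and 0 passing (1 at an unadjusted p under 0.05). The complexin Cplx2 differed by 0.17 ± 0.49, the granule priming factor Cadps by 0.48 ± 0.58 and the SNARE gene Snap25 by -0.83 ± 0.57.

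The 12 expressed genes with the largest enrichment in the weaker of their strains, among the alike class, held several proteins better known elsewhere. Crp, C-reactive protein, was at 121, 145 and 92.2 CPM against 3.62, 0.607 and 4.70 in the NeuroD1 strain and 87.7, 41.6 and 76.6 CPM against 2.18 and 2.14 in GluVenus, with enrichments of 5.24 ± 0.57 and 4.97 ± 0.67 and a difference of 0.28 ± 0.80. Myl7, the atrial myosin light chain, was at 313, 318 and 381 against 8.72, 3.64 and 13.6 CPM, and 204, 121 and 269 against 6.54 and 9.08 CPM, a difference of 0.60 ± 0.61. Every positive library lay above every negative library of its strain for both genes. The potassium channel genes Kcnj3 and Kcnb2 were enriched by 4.89 and 4.73 and by 4.62 and 4.23. Stxbp5l, a tomosyn that restrains vesicle fusion, was at 4.40 and 4.55, Adcy2, an adenylyl cyclase, at 3.84 and 4.08, and Ncam2, an adhesion molecule, at 3.79 and 3.94. The remaining 5 were Ambp, Klf12, a zinc-finger factor, and the already named Chgb, Fev and Scg2. The differences of the 12 ran from -0.28 (Fev) to 1.09 (Scg2). Over the 384 genes higher in both, the difference lay above 0 for 167 and below 0 for 217, with a median of -0.15, close to that of all genes. The class leaned on the Glu negative libraries: of the 180 alike genes, 61 were still higher in both without Glu_negative_4665 and 78 without Glu_negative_5254, and 44 and 49 stayed in the class.

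Among the hormones of the L, I, K and N cells, enrichment was shared. Of the 12 genes of these cells 11 were higher in both strains, 4 alike, with a median difference of -0.02 and 0 passing (2 higher and 1 lower at an unadjusted p under 0.05). Over all genes, 2.62% were higher in both and 1.23% alike, and 4.35% were higher and 6.31% lower at that p. Nts, neurotensin, differed by 0.33 ± 0.58 and Pyy, peptide YY, by -0.66 ± 0.55. Cck, cholecystokinin, was enriched by 6.13 and 4.87, a difference of 1.26 ± 0.51 (adjusted p = 0.381), called with no filter on low counts (1.28, adjusted p = 0.0383). Gip varied within the Glu positive libraries. Gip was at 14175, 10336 and 22483 CPM in the NeuroD1 positive libraries and at 247, 301 and 314 CPM in the negative ones. GluVenus libraries held Gip at 4618, 788 and 506 CPM in positive and at 181 and 155 CPM in negative cells. Its difference was 2.22 ± 0.83 (adjusted p = 0.324 in edgeR), and 3.82 with adjusted p = 0.00306 without Glu_positive_4665, the library with the most Gip of the 3. It was called also with no filter on low counts (2.23, adjusted p = 4.33e-05). Its GluVenus enrichment was lost without Glu_negative_4665 (3.69, adjusted p = 0.0768) and without Glu_negative_5254 (3.45, adjusted p = 0.0824). The enrichment of Pyy in the NeuroD1 strain lost its call without any 1 of 5 NeuroD1 libraries (1.04 to 1.30, adjusted p = 0.0764 to 0.156) and with limma voom (1.27, adjusted p = 0.0912). That in GluVenus lost it without Glu_negative_4665 (1.74, adjusted p = 0.181) or Glu_negative_5254 (2.21, adjusted p = 0.082). Of all 16 peptide hormones, 8 were higher in both strains and 3 passed the difference (Sst, Iapp and Tac1). Their median was 0.49, or 0.38 with Cartpt left out. Cartpt had 0 counts in both Glu groups, so its difference has no bound.

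Transcription factors followed the same division. Of 24 enteroendocrine factors 15 were higher in both strains, 9 of them alike, 1 passed (Lmx1a) and the median was 0.50. Shares over all genes were 2.62% higher in both and 1.23% alike. Prox1 (0.30 ± 0.43), Isl1 (-0.37 ± 0.59), Insm1 (-0.44 ± 0.65), Rfx6 (-0.47 ± 0.60) and Pax6 (-0.75 ± 0.53), which act in endocrine cells broadly, were alike. Etv1, an ETS family factor, leaned to GluVenus at -1.17 ± 0.51 (unadjusted p = 0.0337, adjusted p = 0.417). Neurog3, the transient factor that starts the endocrine fate, was at 32.5, 32.7 and 3.90 CPM in NeuroD1 positive, 4.68, 22.5 and 2.61 in NeuroD1 negative, 0, 1.19 and 0.345 in Glu positive and 11.6 and 0.802 CPM in Glu negative libraries. Its groups overlapped in the NeuroD1 strain and its difference of 5.05 ± 1.70 did not pass (adjusted p = 0.289), but was called with no filter on low counts (5.07, adjusted p = 0.00843). Mnx1, a homeodomain factor, was at 14.7, 10.3 and 16.6 CPM in NeuroD1 positive libraries and at most 1.51 CPM in any other, on 3 counts in the NeuroD1 negatives, with a ratio 39.8-fold higher in the positives (95% counting interval 13.3 to 196). Its difference was not called (adjusted p = 0.184) but was with no filter on low counts (6.16, adjusted p = 0.0335). Of 17 membrane excitability genes 16 were tested, 8 were higher in both and 0 passed, with a median of 0.19. At an unadjusted p under 0.05, 1 was higher (Trpa1), against 4.35% of all genes. The calcium channel Cacna1a (0.65 ± 0.49), its partner Cacna2d1 (-0.36 ± 0.55) and Abcc8, the sulphonylurea receptor (0.46 ± 0.50), were alike.

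**Figure D4:**
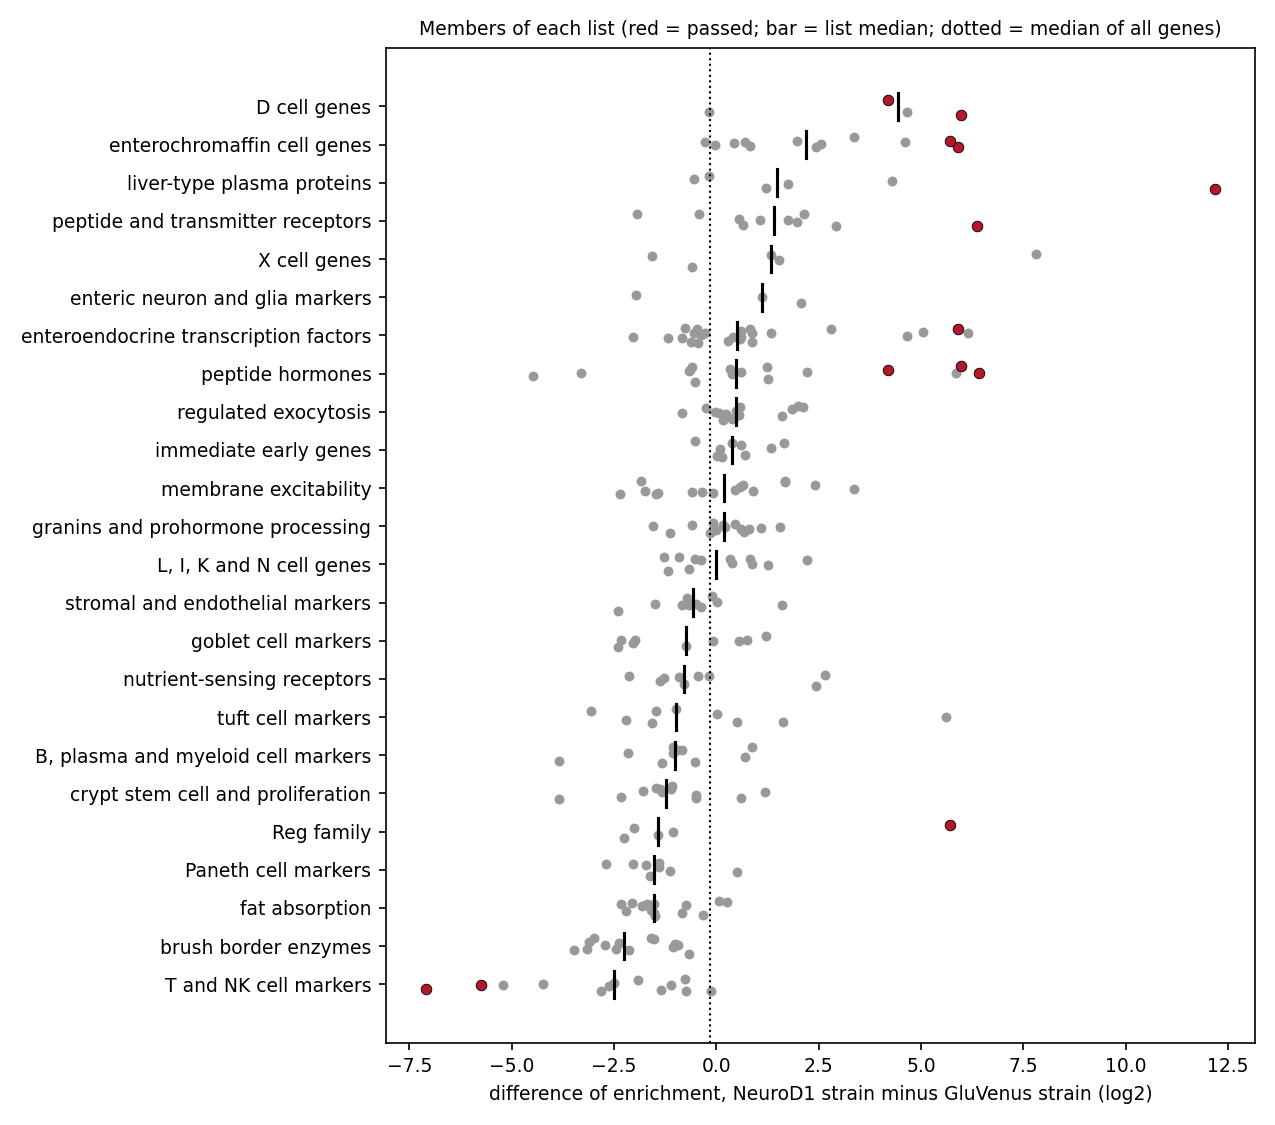
Difference of enrichment (log2, NeuroD1 strain minus GluVenus) of each tested member of 24 gene lists, 1 point per gene, red where the test passed, with a bar at each list's median and a dotted line at the median of all genes, -0.16. D cell and enterochromaffin genes lie to the right with medians of 4.43 and 2.2, granins and L, I, K and N cell genes lie around 0, and brush border and T cell genes lie to the left with medians of -2.25 and -2.51.

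On the other side, the 4 genes with a smaller enrichment in the NeuroD1 strain were depleted from NeuroD1 positive cells and not from Glu positive cells. Cd28, the co-stimulatory receptor of T cells, had 3 counts in the 3 NeuroD1 positive libraries and 21.9, 54.6 and 27.7 CPM in the negative ones, a ratio 85.2-fold lower in the positives (95% counting interval 28.8 to 416). GluVenus libraries held Cd28 at 51.8, 25.7 and 143 CPM in positive and at 54.5 and 46.5 CPM in negative cells. The Glu groups overlapped. Sash3, a lymphocyte adaptor, had 3 counts in NeuroD1 positive libraries against 34.7, 22.5 and 10.97 CPM, 76.5-fold lower (25.9 to 374), and 44.3, 33.7 and 96.6 CPM in Glu positive against 59.4 and 66.8 CPM in Glu negative libraries. Their fitted differences were -7.10 ± 1.18 (adjusted p = 0.0123 in edgeR) and -5.75 ± 0.98 (adjusted p = 0.0150), resting on those few counts and no bounds. Ms4a18, a membrane protein of the MS4A family, was at 4.89, 16.1 and 8.78 CPM in NeuroD1 positive and 76.6, 82.0 and 145 CPM in negative libraries, and at 48.9 to 135 and 46.7 to 72.1 CPM in the Glu groups, a difference of -3.93 ± 0.75 (adjusted p = 0.0473). Clec2h, a C-type lectin of a gene family with close copies, was at 5.34, 10.7 and 12.9 against 158, 112 and 219 CPM, and 32.6 to 70.1 against 57.4 to 83.6 CPM, a difference of -3.45 ± 0.67 (adjusted p = 0.0493). Each of the 4 lost its call without Glu_negative_4665 (adjusted p = 0.122 to 0.346), without Glu_negative_5254 (0.127 to 0.201) and without NeuroD1_positive_6360 (0.0618 to 0.141). NeuroD1_positive_6362, NeuroD1_negative_6360 and at times NeuroD1_positive_6361, NeuroD1_negative_6361, NeuroD1_negative_6362 or Glu_positive_5160 did the same for Sash3, Ms4a18 or Clec2h (-5.54 to -3.09, adjusted p = 0.0507 to 0.157). Cd28 was lost also with limma voom (-6.51, adjusted p = 0.180), Sash3 with limma trend (-4.21, adjusted p = 0.0746) and limma voom (-5.15, adjusted p = 0.198), Ms4a18 with limma voom (-3.81, adjusted p = 0.161) and RLE scaling (-4.03, adjusted p = 0.0594) and Clec2h with library totals alone (-3.35, adjusted p = 0.0563), limma voom (-3.34, adjusted p = 0.177), mt-Rnr1 and mt-Rnr2 kept (-3.48, adjusted p = 0.0518), a replicate block (-3.10, adjusted p = 0.0631), RLE scaling (-3.54, adjusted p = 0.0594) and upper quartile scaling (-3.41, adjusted p = 0.0609).

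T and NK cell markers were the list with the lowest median, -2.51. Of 14 markers 13 were tested, all 13 lay below 0, 2 passed (Cd28 and Sash3) and 6 had a lower value at an unadjusted p under 0.05 (6.31% of all genes did). The summed level of the 14 was 25.1 to 90.0 CPM in the positive and 622 to 891 CPM in the negative libraries of the NeuroD1 strain, and 524 to 2623 and 1932 to 2087 CPM in those of GluVenus. Glu_positive_5254 held the highest sum of all 11 libraries, and Cd4, a T helper cell marker, was at 1049 CPM in it against 83.2 and 131 in the other Glu positives. The list is of cells other than endocrine ones, and its part in the differences of other genes was not tested. The difference of Cd4 was -5.21 ± 1.14 (adjusted p = 0.0855 in edgeR), called without Glu_positive_5160 (-5.78, adjusted p = 0.0210) or Glu_positive_4665 (-5.64, adjusted p = 0.0402). Ptprc, the pan-leukocyte gene, was at -4.24 ± 0.97 (adjusted p = 0.0970) and at -4.65 (adjusted p = 0.0402) without Glu_positive_4665. The T cell receptor constant gene Trbc2, which has a close copy, was among the 4 next outside the threshold (-6.42 ± 1.33, on 2 counts in NeuroD1 positive libraries, adjusted p = 0.0772), called without Glu_positive_5160 (-6.97, adjusted p = 0.0132). Cd4 was called also with DESeq2 (-5.38, adjusted p = 0.0213), no filter on low counts (-5.19, adjusted p = 1.85e-11) and a replicate block (-4.83, adjusted p = 0.0291), Ptprc with DESeq2 (-4.43, adjusted p = 0.00231) and no filter on low counts (-4.23, adjusted p = 1.34e-08) and Trbc2 with DESeq2 (-6.71, adjusted p = 9.85e-04), no filter on low counts (-6.41, adjusted p = 2.05e-06) and a replicate block (-6.72, adjusted p = 0.0291). B, plasma and myeloid markers were depleted from the positive cells of both strains for 8 of 10, against 1.75% of all genes. Their median difference was -1.01, or -0.89 with the 1 member that has 0 counts in a group at its bound. Of the 10, 0 passed and 2 were lower at an unadjusted p under 0.05. Cd74, the invariant chain of MHC class II, was at -3.65 and -2.59, a difference of -1.06 ± 0.47.

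Differences of enrichment of the brush border enzymes of absorptive enterocytes all lay below 0, 14 of 14, with a median of -2.25. Over all genes the median was -0.16. Of the enzymes none passed (0 of 14), and 11 had a lower value at an unadjusted p under 0.05 (6.31% of all genes did). In the NeuroD1 strain 0 of the 14 were called higher and 11 lower in positive cells, and in GluVenus 2 higher and 2 lower. Of all genes, 7.74% were called lower in the NeuroD1 strain, and 3.8% higher and 2.65% lower in GluVenus. Lct, lactase, was at 20.9, 8.95 and 17.3 CPM in NeuroD1 positive and 390.4, 119 and 857 CPM in negative libraries. GluVenus libraries held Lct at 57.3, 28.5 and 33.1 CPM in positive and at 93.6 and 112 CPM in negative cells. The depletion was -4.85 ± 0.60 in the NeuroD1 strain and -1.36 ± 0.56 in GluVenus (not called), a difference of -3.49 ± 0.81 (adjusted p = 0.0983 in edgeR). Meprin beta (Mep1b), next outside the threshold at -2.99 ± 0.62 (adjusted p = 0.0772), and neprilysin (Mme) at -3.17 ± 0.72 (adjusted p = 0.0967) also lay below 0 without a call. Without NeuroD1_negative_6361 the call was made for Lct (-4.00, adjusted p = 0.0215), Mep1b (-3.33, 0.0390) and Mme (-3.61, 0.0390), and without Glu_positive_5254 for Mep1b (-3.26, 0.00945) and Mme (-3.50, 0.0274). Lct was called too with DESeq2 (-3.55, adjusted p = 0.00404), no filter on low counts (-3.47, adjusted p = 8.19e-06) and a replicate block (-3.34, adjusted p = 0.0455), Mep1b with DESeq2 (-3.05, adjusted p = 0.00122) and no filter on low counts (-2.97, adjusted p = 9.25e-04) and Mme with DESeq2 (-3.25, adjusted p = 0.00455) and no filter on low counts (-3.15, adjusted p = 1.03e-05). The summed level of the 14 enzymes was 5773 to 7174 CPM in the positive and 7995 to 24837 CPM in the negative libraries of the NeuroD1 strain, and 6818 to 9994 and 4718 to 6646 CPM in those of GluVenus. Between the negative populations, 10 of the 14 were higher in NeuroD1 than in Glu negative cells at an unadjusted p under 0.05 (4.96% of all genes were) and 0 passed. Of 15 genes of fat absorption 13 lay below 0, with a median of -1.53 and 0 passing. At an unadjusted p under 0.05, 8 were lower, against the 6.31% of all genes. The chylomicron assembly gene Mttp was at -2.32 ± 0.53 (adjusted p = 0.0946) and the fatty acid binding protein gene Fabp2 at -2.20 ± 0.56 (adjusted p = 0.144). Mttp was called with DESeq2 (-2.42, adjusted p = 0.0102) and no filter on low counts (-2.30, adjusted p = 0.00321), Fabp2 with DESeq2 (-2.28, adjusted p = 0.0232), no filter on low counts (-2.18, adjusted p = 0.00143) and a replicate block (-2.30, adjusted p = 0.0352), the acyl-CoA synthetase gene Acsl5 with DESeq2 (-2.13, adjusted p = 0.0224) and no filter on low counts (-2.04, adjusted p = 0.0195) and the fatty acid binding protein gene Fabp1 with no filter on low counts (-1.81, adjusted p = 0.0345).

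**Figure D5:**
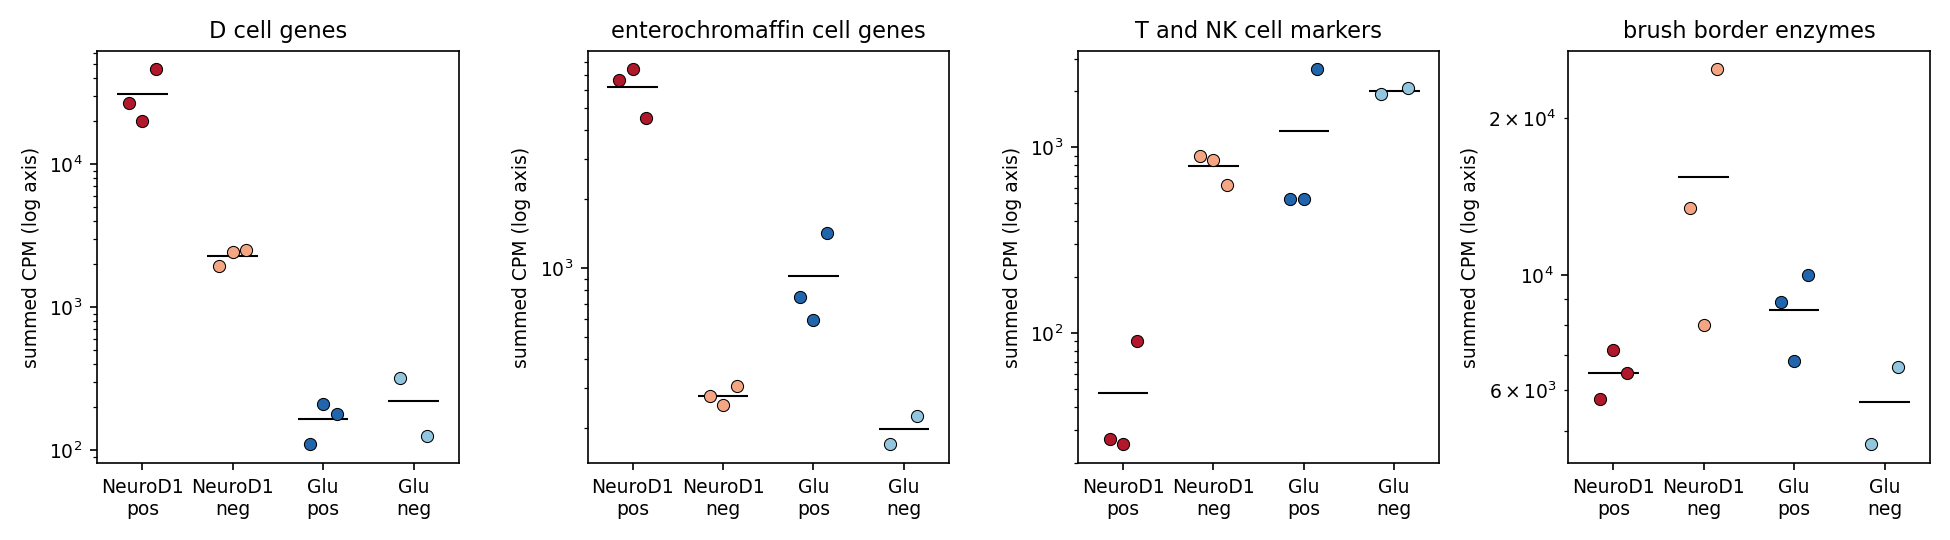
Summed TMM-scaled CPM (log axis) of 4 gene lists in each of the 11 libraries, 1 point per library, with a line at the mean of each group. The D cell sum steps down from NeuroD1 positive over NeuroD1 negative to both Glu groups, and it is mostly Sst (26468 of 26697 CPM in NeuroD1_positive_6360). The enterochromaffin sum is highest in NeuroD1 positive cells, where Reg4 is a large part of it (3984 of 6646 CPM in NeuroD1_positive_6360). T and NK cell markers are lowest in NeuroD1 positive cells and highest in 1 Glu positive library. Brush border enzymes reach their highest sums in the NeuroD1 negative libraries.

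Markers of the remaining epithelial and other cells held 0 called members, beside shares over all genes of 6.31% lower and 4.35% higher at an unadjusted p under 0.05. Their medians were, for goblet cells, -0.75 (9 of 10 tested, 4 lower and 1 higher at that p), Paneth cells -1.51 (8, 1 lower), tuft cells -0.99 (9 of 12, 1 lower and 1 higher, with 4 above and 5 below 0), crypt stem cell and proliferation genes -1.22 (12, 4 lower) and stromal and endothelial markers -0.58 (10, 1 higher). Muc2, the main goblet mucin, was at 41.8, 64.4 and 96.8 against 529, 557 and 436 CPM in the NeuroD1 strain and 166, 392 and 782 against 494 and 776 CPM in GluVenus. It was depleted from NeuroD1 positive cells (-2.90 ± 0.47) and not called in GluVenus (-0.51 ± 0.48), and its difference of -2.39 ± 0.67 did not pass (adjusted p = 0.197 in edgeR). It was called with no filter on low counts (-2.37, adjusted p = 0.00168) and without Glu_positive_4665 (-2.79, adjusted p = 0.0421). Lgr5, the crypt stem cell receptor, was at 7.12, 0.895 and 12.7 CPM in NeuroD1 positive and 27.5, 22.2 and 147 CPM in Glu positive libraries, highest in Glu_positive_5254, and the difference was -3.85 ± 1.18 (adjusted p = 0.242), called with DESeq2 (-4.03, adjusted p = 0.0293) and no filter on low counts (-3.82, adjusted p = 0.00482). The proliferation genes Top2a and Mki67 were at -1.47 ± 0.51 and -1.38 ± 0.54. Pou2f3, the tuft cell master factor, was at 5.60 ± 1.93 (adjusted p = 0.294; called with no filter on low counts (5.60, adjusted p = 0.0121)), with 26.8 CPM in NeuroD1_positive_6361 and at most 0.975 CPM in the other NeuroD1 positives. Enteric neuron and glia markers were barely measured, with 3 of 8 tested and a median of 1.12, or 0.05 with Tubb3, which has 0 counts in 1 group, at its bound. The receptor gene Ret, enriched by 4.17 and 2.11, was at 2.06 ± 0.61 (adjusted p = 0.225), its GluVenus call lost without Glu_negative_4665 (2.30, adjusted p = 0.116) and without Glu_negative_5254 (2.01, adjusted p = 0.157). Immediate early genes, which rise when cells are dissociated, had 9 of 9 tested, 0 passing (2 higher at an unadjusted p under 0.05) and a median of 0.39. X cell genes had 5 of 7 tested, 0 passing (1 higher at an unadjusted p under 0.05) and a median of 1.33. The insulin receptor substrate gene Irs4, of the X cell list, was at 31.1, 80.1 and 114 CPM in NeuroD1 positive and 7.66, 6.07 and 10.5 CPM in negative libraries and had 0 counts in the Glu positives against 9 in the Glu negatives, a ratio whose 95% counting interval begins at 2.34-fold lower (3.56-fold with the same floor). Its difference was not called (adjusted p = 0.0855) but was with DESeq2 (7.16, adjusted p = 0.00231) and no filter on low counts (7.83, adjusted p = 1.12e-04) and without Glu_negative_5254 (adjusted p = 0.0487).

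The pancreatic polypeptide gene Ppy was the 1 hormone with a lower value at an unadjusted p under 0.05, -3.30 ± 1.47 (adjusted p = 0.428 in edgeR). It was at 40.3, 6.34 and 3.45 CPM in Glu positive and 1.68 and 1.87 CPM in Glu negative libraries, and at 0.890, 1.79 and 2.44 CPM in NeuroD1 positive and 0.851, 1.82 and 3.14 CPM in NeuroD1 negative ones, highest in Glu_positive_4665. Pcp4l1, the last of the 4 next outside the threshold, was called lower in Glu positive cells (-3.59 ± 0.86; lost without Glu_negative_4665 (-2.99, adjusted p = 0.170)) and was at 1.86 ± 0.72 in the NeuroD1 strain, a difference of 5.45 ± 1.12 (adjusted p = 0.0772), called with DESeq2 (5.46, adjusted p = 0.00116) and no filter on low counts (5.47, adjusted p = 0.00103).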

How the data were processed

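RNA-seq was measured in 11 libraries of sorted duodenal epithelial cells, made from RNA amplified with the Ovation RNAseq v2 kit, per the labels' protocols. TopHat2 2.1.0, Cufflinks 2.2.1, CASAVA and the build GRCm38 are named in the submitters' processing notes. For counting, no tool, annotation release or strand setting is stated by label, header or notes, so reads of overlapping or antisense genes cannot be told apart. The authors deposited 1 table of estimated counts per gene for 38283 genes, of which 848 hold values that are not whole. They were rounded here.

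mt-Rnr1 and mt-Rnr2 were removed before library sizes were taken. In R 4.3.3, edgeR 4.0.16 scaled the libraries by TMM, kept 14629 genes by its default count filter and fitted 1 mean for each of the 4 groups with the quasi-likelihood test, with Benjamini-Hochberg adjustment over all genes tested. The SE is the log2 difference divided by the root of F. DESeq2 1.42.0, limma 3.58.1, other scalings and filters and each library left out in turn were the alternatives. Scripts were tested on simulated data.

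Replicate libraries differed by more than sampling noise (chi-square per degree of freedom 12.4 to 103.8). Library numbers were not used to pair the samples in the main fit, and the labels do not say whether same-numbered libraries share a mouse. Total counts and their spread set the precision, and counting intervals at 95% (exact) and the floor of 3 counts over a group cover counting error only. The genes named are the 4 markers, all genes passing the difference, up to 4 members of each of 24 lists, 12 genes enriched alike and the 4 next outside the threshold. Other list members are given for their role. Members and lists were chosen with earlier results of these data known.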

Additional observations from a re-analysis of the deposited data

Results flagged for a closer look

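The enrichment in positive cells differed between the strains, by a test of the difference itself, for 19 genes. On the log2 scale, NeuroD1 strain minus GluVenus, it was larger for Afp (12.19), Trpc7 (9.98), Tpbg (6.99), Tac1 (6.42), Arg1 (6.41), Glp1r (6.37), Iapp (5.99), 2810025M15Rik (5.94), Lmx1a (5.91), Reg4 (5.72), Asic5 (5.49), Fmo2 (4.30), Sst (4.20), Vcan (3.82) and Gpx3 (2.71).

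It was smaller for Clec2h (-3.45), Ms4a18 (-3.93), Sash3 (-5.75) and Cd28 (-7.10). The values of Afp, Trpc7, Cd28 and Sash3 rest on 0 to 3 counts in 1 group and are fitted values, not bounds.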

How the results depend on the processing

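None of the alternatives reversed the sign of a value compared for the named genes (0 of those compared). Of these values 4165 kept their side of the threshold, whatever their change in size, 77 gained a call and 183 lost one. Counts of genes are given below. All 19 differences kept their sign under the 22 alternatives. Of the 19 differences, 14 lost their call without Glu_negative_4665, 12 without NeuroD1_positive_6360, 12 with limma voom and 10 without Glu_negative_5254, and the cause of the changes was not tested.

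With no filter on low counts the difference was called higher for 82 genes and lower for 247, NeuroD1-only genes numbered 49, Glu-only genes 63, Glu enrichment 901 higher and 621 lower, the gap between positives 1190 lower and between negatives 159 higher and 93 lower. DESeq2 gave 57 and 117 for the difference, 41 NeuroD1-only, 20 Glu-only, 976 higher in Glu, 1116 lower between positives and 132 and 46 between negatives. With limma voom these were 7 and 0 for the difference (1158 at an unadjusted p under 0.05), 7 NeuroD1-only, 238 lower between positives and 27 lower between negatives. A limma trend fit gave 84 higher between negatives, and RLE scaling 2 lower differences. The alike class held 4 genes at a bound of 1 and 314 at a bound of 3.

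Leaving out each library in turn gave 5 to 21 higher and 0 to 28 lower differences, 5 to 19 NeuroD1-only, 0 to 4 Glu-only, 45 to 247 alike and 102 to 467 genes higher in both. It gave 502 to 1221 higher and 724 to 1518 lower in the NeuroD1 strain, 107 to 747 and 86 to 424 in GluVenus, 246 to 890 and 325 to 1260 between positives, and 22 to 86 and 4 to 48 between negatives.

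Of the Glu enrichment calls 58.9% were higher, against 48.8% with upper quartile scaling and 41.9% with library totals alone, which moved the median of all genes from 0.04 to -0.11 and -0.19. In the NeuroD1 strain library totals alone moved it from -0.01 to -0.15.

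The library numbers were not treated as pairs. Deviations of same-numbered libraries correlated at 0.0456, 0.013 and 0.00883 in the NeuroD1 strain and at 0.0395 and 0.0418 in GluVenus. Different-numbered libraries of the NeuroD1 strain correlated at -0.0345 to 0.0179. With only 2 Glu negative libraries, each GluVenus value has a mirror of opposite sign. These values cannot settle whether the libraries are paired. With a replicate block 13 of the 19 differences passed among 25 called, 12 of them lower, and Tac1, Glp1r, Trpc7, Gpx3, Clec2h and 2810025M15Rik lost their call. With it 2 genes were Glu-only and 219 were lower in Glu.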

Other observations

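A gene outside the naming rule was picked after its values were seen, as 1 of those closest to a larger enrichment in GluVenus. Nefm was at 123, 81.2 and 216 CPM in Glu positive and 9.06 and 12.3 CPM in Glu negative libraries, against 163, 204 and 287 and 96.6, 116 and 117 CPM in NeuroD1 positive and negative ones, a difference of -2.73 ± 0.58 (adjusted p = 0.0842 in edgeR's quasi-likelihood test with Benjamini-Hochberg adjustment). Nefm encodes a neurofilament subunit. It did not pass. An unadjusted p under 0.05 for the difference was found for 67 of the 172 genes called higher in GluVenus alone and for 135 of the 505 in the NeuroD1 strain alone, against 10.7% of all genes. Both classes were chosen on the enrichments that make up the difference, so these counts support nothing. Nefm was called with DESeq2 (-2.83, adjusted p = 0.00390), no filter on low counts (-2.70, adjusted p = 0.00225) and a replicate block (-2.99, adjusted p = 0.0291), and without Glu_positive_5160 (-3.06, adjusted p = 0.0240).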
